A study of Mus musculus with 6 samples.

Results

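The genes described here encode proteins that bind Aire or work with it at chromatin, together with factors that release RNA polymerase II from pausing. They are 32 genes chosen by symbol for these roles, and every array probe annotated with one of these symbols was included. The arrays held 63 such probes for 30 of the genes, out of 46619 probes and 19406 named genes in all. Polr2a and Ssrp1 were not analysed here. RNA came from MHC class II-high medullary epithelial cells of the mouse thymus (mTECs), which present self proteins of other organs to maturing thymocytes. The study hybridised 3 wild-type and 3 Aire knockout samples, all on the C57BL/6 background, to Illumina bead arrays. Wild-type samples 1 and 3 and knockout sample 2 were female and the other 3 male. Wild-type samples 1 and 2 carry an earlier date label, and wild-type sample 3 and all knockout samples a later one. The date label is thus largely confounded with genotype. The labels give no ages or further sort gates and do not say whether mice were pooled, so p-values measure only the spread between these samples, which may be technical.

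Aire does not act as a classical sequence-specific activator. It is known to enter nuclear complexes with DNA-dependent protein kinase and topoisomerases, to bind the acetyltransferase CBP and the MBD1-ATF7IP repressor complex, and to recruit P-TEFb, the kinase that releases paused RNA polymerase II into elongation. Through these partners it raises transcription of a broad range of tissue-restricted genes in mTECs. The comparison asks whether the transcripts of these partners themselves differ in cells without Aire. It measures mRNA only, so it does not bear on the proteins' binding or activity.

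Values are the deposited normalized log2 values. Folds are 2 to the power of their differences, which a remaining background compresses for dim probes. Testing was limited to probes above a background bound of 6.81 (the mode of the array plus 3 SD) on at least 3 of the 6 arrays. A gene was called changed when the Benjamini-Hochberg adjusted p of limma, over all 19420 tested probes, was under 0.05. Each gene is represented by its brightest tested probe. The Aire transcript fell on both of its probes, with log2 changes of −3.31 and −2.32. All 14 mTEC markers on the array stood above background on all 6 arrays. Their summed linear signal was lower in the knockout without overlap (124380.8 to 137505.9 in wild type, 120212.9 to 121803.3 in the knockout). This list includes Aire itself, which read 13.53 ± 0.13 and 10.22 ± 0.19 log2 units (SD, n = 3 each). The separation of the sums thus includes the loss of Aire and does not show a fall of the other markers. Of the 14 genes, 3 were called lower (21.4%) and 2 higher (14.3%). Among all tested named genes 23.1% were called lower and 18.3% higher. Of the markers of other cells, the dendritic cell genes Itgax, Xcr1, Clec9a and Flt3, the B cell genes Ms4a1 and Pax5, and the thymocyte genes Rag1, Rag2 and Dntt were above background on none. Other members of these lists were detected. Each array had 6 to 8 of 11 thymocyte, 3 or 4 of 8 dendritic cell and macrophage, and 1 or 2 of 4 B cell markers above background. Of the tested markers, 2 of 7 thymocyte (28.6%) and 2 of 4 dendritic cell and macrophage genes (50%) were called lower and none higher. All tested named genes had 23.1% and 18.3%. The largest falls in these 2 lists were −1.01 and −2.01. In the second list, Adgre1 was above background on every wild-type array and on no knockout array. It passed the filter only through wild type, so its direction follows from the filter. The summed linear signal of the 11 thymocyte markers was 6109.7 to 8914.6 in wild type and 5428.9 to 6675.8 in the knockout, and that of the 8 dendritic cell and macrophage markers 6247.3 to 8272.0 and 6948.8 to 7903.7. Marker sums that were higher in the knockout without overlap were those of the 6 fibroblast markers (2668.7 to 3545.2 in wild type, 5750.9 to 6039.9 in the knockout), the 5 endothelial markers (1012.1 to 1352.0 and 1520.1 to 1723.2) and the 4 B cell markers (1702.0 to 1814.1 and 2071.5 to 2108.0). Most of the fibroblast sum came from Dcn, a small proteoglycan, which read 11.19 ± 0.21 and 12.36 ± 0.01 log2 units (SD, n = 3 each). On each knockout array only 1 of the 4 B cell markers was above background. Of the 2 tested B cell genes, 1 rose (0.34) and 1 fell. Single markers of these lists also went the other way. The collagen gene Col1a1 (−1.31), the B cell receptor gene Cd79a (−0.91, not above background in the knockout) and the endothelial cadherin Cdh5 (−0.45) fell. Cd79a passed the filter only through the wild-type arrays, so its fall follows from the filter. The part of such cells in the results below was not tested. In whole-sample RNA, fewer cells of a type and less RNA per cell cannot be told apart.

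Most tested Aire partner genes were not called changed between the genotypes. Of the 27 genes with a tested probe, 4 fell (Hexim1, Chd4, Trim28 and Prkdc) and 4 rose (Crebbp, Sirt1, Top2b and Pias1). Each direction thus held 14.8% of the tested partners, against 23.1% of all 11740 tested named genes called lower and 18.3% called higher. In either direction 29.6% of the partners were called, against 41.4% of all tested named genes. These shares are not matched for signal level. Among tested named genes with a mean value under 7, which include no partner, 38.6% were called lower and 7.49% higher. From 8 to under 9 and from 9 to under 10, which hold 7 and 9 partners, 21.8% and 18.6% were called lower. In the same 2 ranges 22.9% and 20.4% were called higher. From 7 to under 8, with 2 partners, the shares were 27.6% lower and 19.1% higher. Of the partners, 4, 3 and 2 lay at 10 to under 11, 11 to under 12, and 12 or more. There 17.2%, 13.8% and 12.6% of tested named genes were called lower and 19%, 18.8% and 13.9% higher. The largest change of a partner was 0.89 log2 units. Only 3 of the 27 (11.1%) changed by 0.5 log2 units or more, against 27.1% of all tested named genes, and none by 1 unit, against 9.8%. The median change was −0.07 for the partners and 0.02 for all tested named genes. Wild-type and knockout arrays did not overlap for 6 partners that were lower and 4 that were higher in the knockout. Among all tested named genes, 27.2% and 27.1% separated in these directions.

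**Figure D1:**
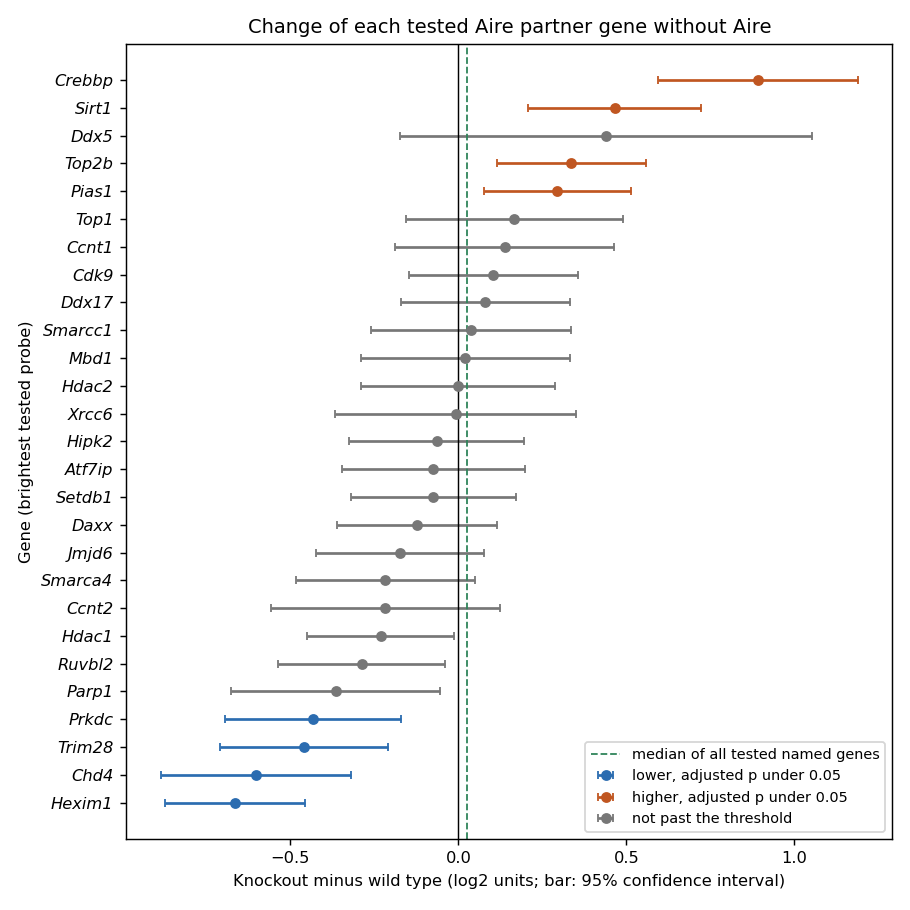
Change of each of the 27 tested Aire partner genes, as the knockout mean minus the wild-type mean in log2 units on the x axis, with 95% confidence intervals from limma. Genes are ordered on the y axis by change, blue points are the 4 called lower, orange points the 4 called higher, and the dashed line is the median of all tested named genes (0.02). The changes run from −0.66 for Hexim1 to 0.89 for Crebbp.

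Among the pause release factors, Hexim1 fell while the kinase and cyclins of P-TEFb did not pass the test on their brightest probes. Hexim1 is the inhibitor that holds P-TEFb inactive in a complex with a small nuclear RNA. It read 9.63, 9.71 and 9.71 in wild type (replicates 1 to 3, in this order throughout) and 9.06, 8.96 and 9.02 in the knockout. All knockout arrays lay below all wild-type arrays, with little spread in either group. The group values were 9.68 ± 0.05 and 9.02 ± 0.05 (SD, n = 3 each), which is 1.58-fold lower (log2 change −0.66, SE 0.09, limma adjusted p = 0.000387). The change was −0.61 within beadchip 1 and −0.71 within beadchip 2. Beadchip 1 held wild-type samples 1 and 2 and knockout sample 1 only, and beadchip 2 the rest, so each change within a beadchip has 1 array on one side, which is assumed to vary like the others, and is weak evidence. Across the alternatives its adjusted p ran from 0.000156 to 0.0506, and the call ended only within beadchip 1 (0.0506).

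Cdk9, the kinase of P-TEFb, read 8.35, 8.65 and 8.67 in wild type and 8.63, 8.70 and 8.67 in the knockout. These groups overlapped, and the interval of the difference ran from −0.15 to 0.35. Ccnt1, the main cyclin partner of Cdk9, changed by 0.14 and 0.15 on its 2 probes, with intervals of −0.19 to 0.46 and −0.11 to 0.41. The probes of Ccnt2, the other cyclin of the kinase, went in opposite directions. The brighter one, annotated to a cDNA clone, changed by −0.22 (95% interval −0.56 to 0.12) and was not called. The other tested probe, annotated to the RefSeq transcript, rose from 7.74 ± 0.13 to 8.11 ± 0.04 (adjusted p = 0.021). A further 2 Ccnt2 probes were not above background on any array.

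In the wider P-TEFb list (18 genes, chosen with earlier results of these data known), 3 of 10 tested genes rose (30%) and none fell, with a median change of 0.09. For this and every list below, the shares among all tested named genes were 18.3% higher and 23.1% lower. Hexim2, the close paralog of Hexim1, changed in the opposite direction to it. Its brighter probe read 7.77, 7.55 and 7.70 in wild type and 8.56, 8.61 and 8.33 in the knockout, which is 1.78-fold higher (adjusted p = 0.000349), and its second probe rose by 0.81. Cdk13, a kinase of the polymerase tail (0.41), and Ell2 of the super elongation complex, which was not above background in wild type (at least 1.14-fold higher), also rose. Ell2 passed the filter only through the knockout arrays, so its rise follows from the filter and adds nothing to the list's count. The calls of Cdk13 and Ell2 ended with cyclic loess and with housekeeping scaling, and that of Hexim2 with neither. Of 21 tested pausing and elongation factors, 2 fell (9.52%) and 5 rose (23.8%), with a median change of 0.08.

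Tcea3, a tissue-restricted form of elongation factor TFIIS, had the largest change of the pausing and elongation list. It read 9.26, 9.08 and 9.26 in wild type and 6.80, 6.85 and 7.01 in the knockout, which is 4.98-fold lower (adjusted p = 1.72e-07), with the knockout above background on 2 of its 3 arrays and close to the bound. Cdc73 of the PAF complex rose by 0.56 and Supt4a, the small subunit of the DSIF pausing factor, by 0.49 on one probe and 0.91 on another. Of 9 tested other subunits of RNA polymerase II, only Polr2k was called, rising by 0.38 on one probe and changing by 0.15 on the other, which did not pass. The call of Polr2k ended with both scalings.

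Of the DNA-dependent protein kinase and topoisomerase group, Prkdc fell and Top2b rose. Prkdc, the catalytic subunit of the kinase that acts in end joining of DNA breaks, read 9.18, 8.97 and 8.79 in wild type and 8.60, 8.51 and 8.52 in the knockout. The groups did not overlap, and the knockout was 1.35-fold lower (log2 change −0.43, SE 0.12, adjusted p = 0.0162). A second, dim Prkdc probe changed by −0.03 (95% interval −0.33 to 0.27). The change was −0.47 within beadchip 1 and −0.27 within beadchip 2. With the date label as a covariate, which compares the knockout arrays with wild-type replicate 3 alone, it was −0.24. The call ended without knockout replicate 2 (adjusted p = 0.0599) and with housekeeping scaling (0.178), among others, and adjusted p-values ran from 0.00459 to 0.379.

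The kinase's DNA-binding Ku subunits were not called. Xrcc6 had overlapping groups at 8.20, 8.53 and 8.79 in wild type and 8.41, 8.36 and 8.73 in the knockout (interval −0.37 to 0.35), and its dimmer probe changed by 0.31 (interval −0.03 to 0.66). The only Xrcc5 probe was not above background on any array. Parp1, the sensor of DNA breaks, changed by −0.37 (interval −0.68 to −0.05, adjusted p = 0.063), and its dimmer probe by 0.09. Parp1 passed with cyclic loess, without wild-type replicate 3 and without knockout replicate 3 (adjusted p = 0.0361, 0.0406 and 0.0362), with 0.633 the highest adjusted p.

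Top2b, the topoisomerase of non-dividing cells, read 7.66, 7.69 and 7.72 in wild type and 7.91, 8.04 and 8.12 in the knockout. Every knockout array lay above every wild-type array. The difference was 0.34 (SE 0.10, adjusted p = 0.0232, within beadchips 0.24 and 0.36, with the date covariate 0.30). It ended with cyclic loess (0.18, adjusted p = 0.194), with beadchip as a block (0.0526) and without any of wild-type replicate 2 and knockout replicates 2 and 3 (0.0538 to 0.0773), among 10 of 22 alternatives, with adjusted p-values of 0.0167 to 0.375 across the alternatives. Top1, which relaxes DNA through single-strand nicks, changed by 0.17 and 0.18 on its tested probes, neither of which passed. In the related list of end joining, damage sensing and topoisomerase genes, 6 of 19 tested fell (31.6%) and 2 rose (10.5%). All tested named genes had 23.1% and 18.3%, and the median change of the list was −0.13. The falls included the proliferation-linked topoisomerase Top2a (−0.89) and the replication ligase Lig1 (−0.80, a second probe at −0.24 not passing). Rad50, a subunit of the complex that senses broken DNA ends, read 8.28, 8.84 and 8.66 in wild type and 10.25, 10.49 and 10.01 in the knockout, which is 3.16-fold higher (adjusted p = 4.08e-05), and its second probe rose by 0.36.

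The largest rise among the 27 tested partners was that of an acetyltransferase gene. Crebbp, which encodes the acetyltransferase CBP, read 7.19, 7.20 and 7.11 in wild type and 8.04, 8.33 and 7.81 in the knockout. The groups were far apart for their spread, at 7.17 ± 0.05 and 8.06 ± 0.26 (SD, n = 3 each), which is 1.85-fold higher (log2 change 0.89, SE 0.13, adjusted p = 0.000579). The second Crebbp probe, close to background in wild type, also rose (0.56, adjusted p = 0.0117). Within beadchips 1 and 2 the brighter probe changed by 0.85 and 0.96, and its call ended only within beadchip 1 (adjusted p = 0.0517, lowest 0.000106). Ep300, the paralog of Crebbp, had 3 probes, none above background on any array.

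Sirt1, a deacetylase known to remove acetyl groups from Aire and needed for its activity in mice, read 11.29, 11.50 and 11.50 in wild type and 11.86, 12.07 and 11.77 in the knockout. All knockout values were higher, by 0.46 on average (1.38-fold, SE 0.11, adjusted p = 0.0105, within beadchips 0.46 and 0.42). Its call ended without knockout replicate 2 (adjusted p = 0.0502) and with the date label as a covariate (0.136), among others, with adjusted p-values from 0.00766 to 0.24. Of the 6 other sirtuins, all tested, Sirt4 rose by 0.64 and none fell. Among 10 tested acetyltransferases and coactivators of that type 3 rose (30%, against 18.3% of all tested named genes). They were the nuclear receptor coactivators Ncoa1 (0.49), Ncoa3 (0.46) and Ncoa2 (0.28). The call of Ncoa3 ended with cyclic loess and that of Ncoa2 with both scalings.

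Chd4, the ATPase of the NuRD remodelling and deacetylase complex, fell on its brightest probe. The probe read 10.97, 10.75 and 10.73 in wild type and 10.14, 10.06 and 10.44 in the knockout, with no overlap. The knockout was 1.52-fold lower (log2 change −0.60, SE 0.13, adjusted p = 0.0045), with −0.72 within beadchip 1 and −0.48 within beadchip 2. The other tested Chd4 probes, both dimmer, changed by −0.06 and −0.14 and did not pass. Adding the date label as a covariate gave an adjusted p of 0.0859, between extremes of 0.00169 and 0.213. The deacetylases Hdac1 and Hdac2, also NuRD subunits, were not called. Hdac1 read 10.99, 10.99 and 10.82 in wild type and 10.67, 10.70 and 10.74 in the knockout. Its groups did not overlap, but the difference of −0.23 (interval −0.45 to −0.01) had an adjusted p of 0.0866. Hdac2 differed by 0.00 on its brighter probe (interval −0.29 to 0.29). In the related NuRD and deacetylase list 3 of 24 tested genes fell (12.5%) and 2 rose (8.33%), against 23.1% and 18.3% of all tested named genes. Hdac9, a class II deacetylase, was 2.68-fold higher (adjusted p = 3.2e-05), while Hdac5 (−0.75, with −0.26 on a dimmer probe that did not pass) and the Sin3 complex subunit Sap30 (−0.57) fell.

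**Figure D2:**
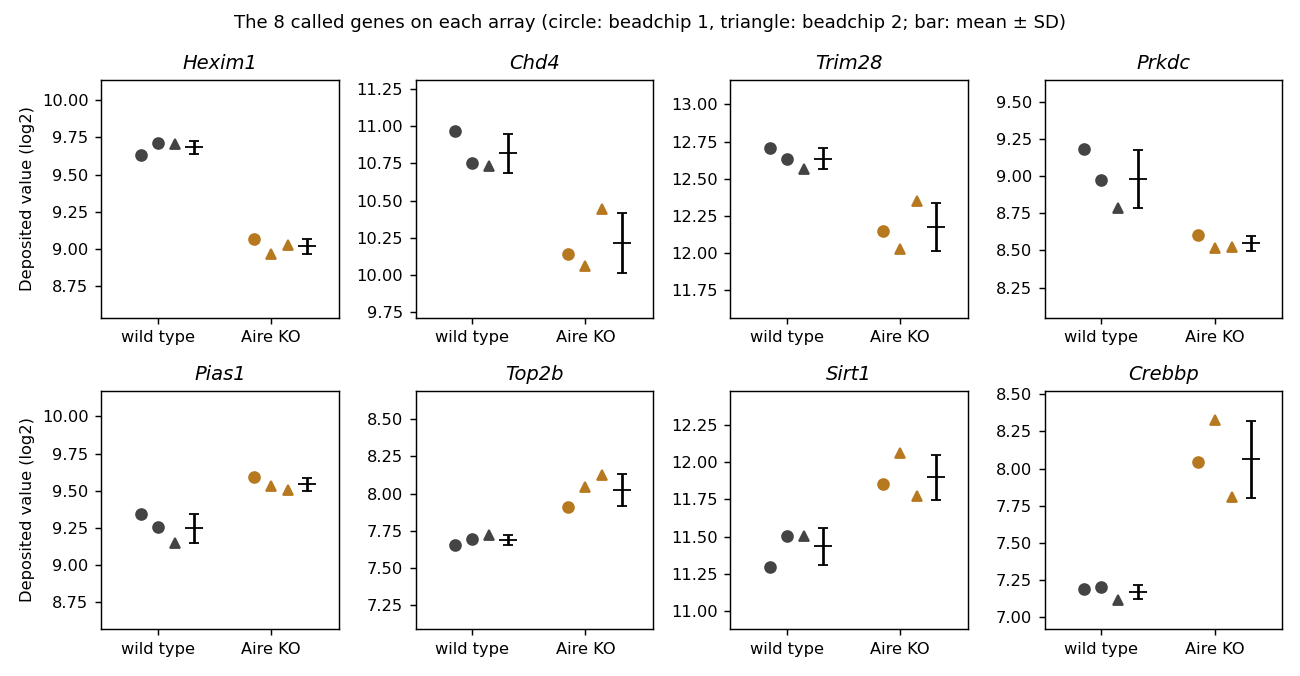
Deposited log2 value of the 8 called partner genes on each array, in 1 panel per gene with panels spanning the same number of log2 units. Circles are arrays of beadchip 1, triangles arrays of beadchip 2, and the bars beside them the mean ± SD of 3 arrays. In each panel the knockout arrays lie wholly below (top row) or wholly above (bottom row) the wild-type arrays.

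Of the partners linked to methylated DNA and histone methylation (Trim28, Mbd1, Atf7ip and Setdb1), only Trim28 was called on its brightest probe. Trim28, the corepressor that zinc finger proteins bring to DNA and that links to histone methylation, read 12.71, 12.63 and 12.56 in wild type and 12.15, 12.03 and 12.35 in the knockout. The groups did not overlap and the knockout was 1.37-fold lower (log2 change −0.46, SE 0.11, adjusted p = 0.00952, within beadchips −0.52 and −0.37). Its call ended with housekeeping scaling (0.139) and with the date label as a covariate (0.13), and adjusted p-values spanned 0.00465 to 0.274. Mbd1, the methyl-DNA binding partner of Aire, changed by 0.02 to 0.19 on 4 tested probes, none called. Atf7ip, which bridges Mbd1 and Setdb1, changed by −0.07 on its brighter probe (interval −0.35 to 0.20). Its dimmer probe rose by 0.39 (adjusted p = 0.0203). The histone methyltransferase Setdb1 changed by −0.07 (interval −0.32 to 0.17). Among 10 tested genes of methyl-DNA binding and histone lysine methylation 2 fell, the maintenance methylation factor Uhrf1 (−0.59) and the DNA methyltransferase Dnmt3b (−0.58), and the repair glycosylase Mbd4 rose (0.44), a call that ended with both scalings.

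Among the nuclear body and modification partners, the SUMO ligase gene Pias1 rose by the smallest amount of any called partner. It read 9.34, 9.26 and 9.15 in wild type and 9.59, 9.53 and 9.51 in the knockout. The groups were separate but the difference was 0.29 (SE 0.10, adjusted p = 0.0387), and the second probe changed by 0.26 and did not pass. The call ended under 16 of 22 alternatives, among them the replicate block (adjusted p = 0.0561) and the sex covariate (0.07). Leaving out any array but wild-type 1 also ended it (0.0658 to 0.133). Adjusted p-values spanned 0.013 to 0.279, and the change was 0.29 and 0.37 within beadchips 1 and 2. Hipk2, a kinase that phosphorylates Aire, changed by −0.07, 0.17 and −0.06 on 3 tested probes. The transcriptional corepressor Daxx changed by −0.12 (interval −0.36 to 0.11). In the list of SUMO, PML body and HIPK genes 5 of 16 tested rose (31.2%) and 1 fell (6.25%), against 18.3% and 23.1% of all tested named genes. Sp100, a component of PML bodies, was 2.18-fold higher (adjusted p = 0.000455). The paralog kinase Hipk1 rose by 0.49, a call that ended with cyclic loess, and Sae1, part of the SUMO activating enzyme, fell by 0.52, a call that ended with housekeeping scaling.

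No partner from the SWI/SNF and RUVBL complexes, nuclear import or RNA processing was called. Smarca4, the ATPase of SWI/SNF complexes, changed by −0.22 (interval −0.48 to 0.05) and the core subunit Smarcc1 by 0.04 and 0.13 on its probes. Ruvbl2, an ATPase shared by several remodelling complexes, read 9.90, 9.91 and 10.01 in wild type and 9.59, 9.52 and 9.84 in the knockout. It was separated by array but not called (−0.29, adjusted p = 0.0659), and it passed with cyclic loess (0.033), with array weights (0.026) and without knockout replicate 3 (0.0269), against a highest adjusted p of 0.419. The helicase gene Ddx17 changed by 0.08 and 0.12 on its tested probes. Jmjd6, a hydroxylase linked to splicing, changed by −0.17 (interval −0.42 to 0.08). The import receptor Kpnb1 was above background on knockout array 3 only and was not tested.

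The helicase gene Ddx5 showed how 1 array can carry a difference. It read 8.34, 9.51 and 9.55 in wild type and 9.54, 9.66 and 9.52 in the knockout, so wild-type array 1 stood apart from the other 5. The change was 0.44 (interval −0.17 to 1.05, adjusted p = 0.227) and 0.04 without that array. Wild-type array 1 was the farthest from its group for 17 of the 27 partners (63.0%), against 39.7% of all tested named genes. Knockout array 3 was the farthest of its group for 12 partners (44.4%), against 40.5%.

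In the remaining lists, 4 of 17 tested SWI/SNF genes fell (23.5%) and 3 rose (17.6%), close to the 23.1% and 18.3% of all tested named genes. They included the subunits Smarcd3 (−0.62), Bcl7a (−0.43) and Bcl7b (0.64). The acetyltransferase Kat5 (0.60) was the only call among 11 tested genes of the INO80, SRCAP and TIP60 complexes. Of 21 tested nuclear import genes 4 fell (19%) and none rose. Among these 4 were the importin Ipo4 (−0.62, with 0.06 on a dimmer probe that did not pass), the Ran regulator Ranbp1 (−0.58) and the pore protein Nup93 (−0.52). Of 29 tested pre-mRNA processing genes and JMJD6 relatives 4 fell (13.8%) and none rose. Among these 4 were the demethylase Kdm6b (−0.65), the splicing factor Srsf2 (−0.50, a second probe at −0.05) and the helicase Ddx39b (−0.46, a second probe at −0.02). Housekeeping scaling ended the calls of Bcl7a, Nup93, Srsf2 and Ddx39b. Over the 13 lists together, without the partners themselves, 26 of 203 tested genes fell and 27 rose. The share called was 26.1%, against 41.4% of all tested named genes, again not matched for signal level. Cell cycle and replication genes stood apart from these lists, with 16 of 21 tested genes lower and none higher (median change −0.62), for example Mcm5 (−1.27), Cenpa (−1.21) and Cdc20 (−1.17), although the dimmer probes of Cenpa and Cdc20 did not pass. Their part in the falls of Chd4, Trim28 and Prkdc was not tested. Of 20 tested housekeeping genes 3 rose, Tbp (0.36), Rab7 (0.34) and Emc7 (0.29), and none fell. Both scalings ended these calls, although the rises were larger with housekeeping scaling (0.42, 0.40 and 0.34). Leaving out 1 array also ended calls of these lists. The highest limma adjusted p came without knockout replicate 1 for Ncoa1, Ncoa2, Hipk1, Tbp and Emc7. It came without knockout replicate 2 for Cdk13, Ell2, Ncoa3, Uhrf1, Bcl7a and Rab7 (0.0578 to 0.166 over both sets). Only the array with the highest value is given for each gene, and leaving out others may end the same calls.

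**Figure D3:**
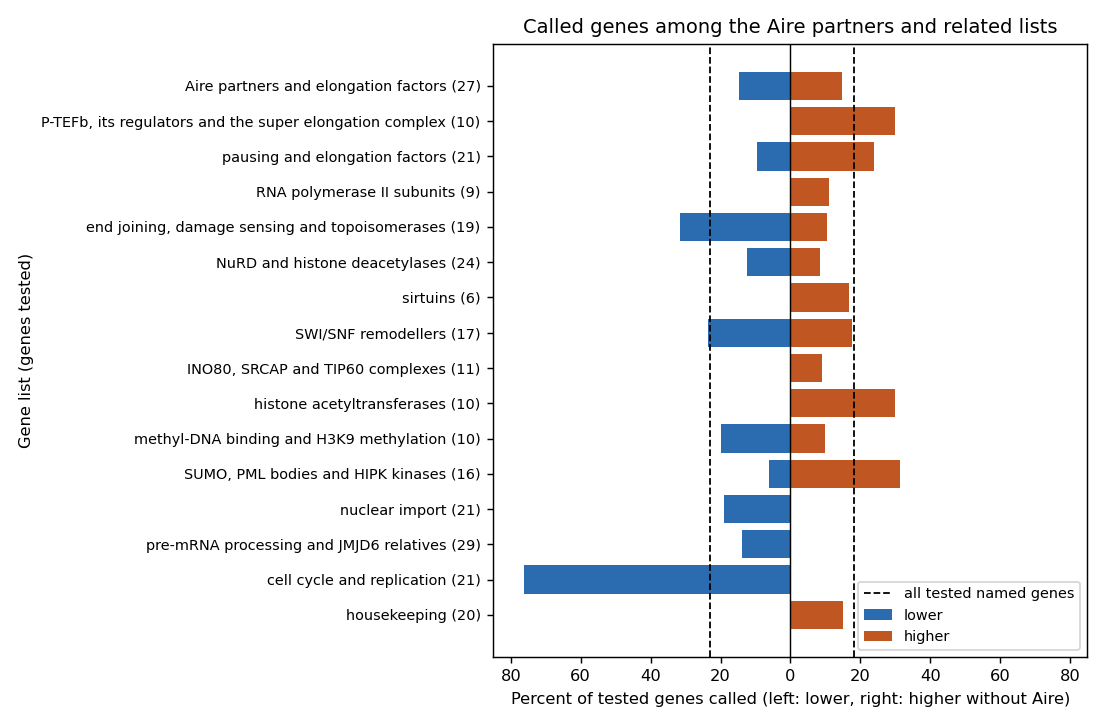
Percent of tested genes called lower (blue, to the left) and higher (orange, to the right) in the knockout, for the 27 Aire partners and elongation factors in the top row and for each related list, with the number tested in brackets. Dashed lines mark 23.1% and 18.3%, the shares of all tested named genes called lower and higher. The partners have 14.8% on each side, and cell cycle and replication genes have 76.2% on the lower side.

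Probes of the same gene often gave different sizes of change. Of the 15 partners with 2 or more tested probes, all tested probes of 9 had the same sign, a share of 60%, against 73.1% of 3203 such genes in all. The dimmest probe had the more positive change in 13 of the 15 (86.7%, against 66.9% of all such genes), with a median gap of 0.09 log2 units against 0.11. Counted by probe, 4 of 46 tested partner probes fell and 7 rose, where 17.7% of all tested probes fell and 20.7% rose. The added rises were the second probes of Crebbp, Ccnt2 and Atf7ip.

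**Figure D4:**
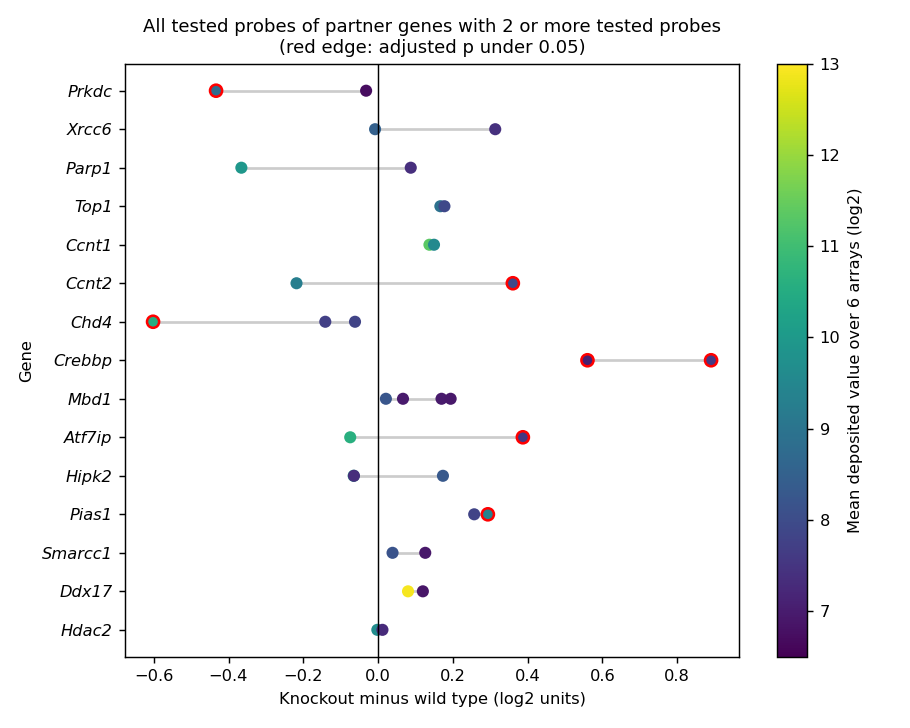
Change in log2 units (x axis) of every tested probe of the 15 partner genes with 2 or more tested probes (y axis), with points coloured by the mean deposited value over the 6 arrays and ringed in red where called. Grey lines join the probes of a gene. The probes of Crebbp are both called higher, while those of Ccnt2 and Atf7ip lie on both sides of 0.

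No partner probe had a genotype effect that passed as different between males and females. The interaction was tested with limma in a model with 2 residual degrees of freedom. It called 0 of 46 partner probes and 0 of all tested probes after adjustment. At an unadjusted p under 0.05 it gave 1 partner probe, a dim Chd4 probe chosen here after its value was seen (change −0.40 in males and 0.21 in females), and 421 of all tested probes (2.17%).

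The start sites of 29 of the 32 genes were matched by symbol to 37 RefSeq promoter windows of 300 bases (250 before the start and 50 after it, assembly GRCm38.p6). The windows of the tested partners had a median GC content of 65.3% and a median of 29 CpG dinucleotides, against 59.7% and 18 for the windows of all tested named genes. The motif GGGCGG, searched on both strands with overlaps counted, was present in 83.9% of the 31 windows of tested partners, in 57.2% of those of tested named genes and in 35.7% of all 32851 windows. The motif TATAAA was present in 6.45%, 9.19% and 13.6%, CCAAT in 41.9%, 37.2% and 37.4%, and CCGGAAG, the core bound by ETS factors, in 32.3%, 15.1% and 8.86%. A match is only a run of letters and does not show that a factor binds. The windows of the 5 partners whose calls ended under at most 5 alternatives are printed, to set genes that fell beside genes that rose, 5′ to 3′ on the gene's strand, with GGGCGG and its reverse complement in capitals. Hexim1, Chd4 and Trim28 fell, and Crebbp and Sirt1 rose. Hexim1 lies at chr11:103116075-103116374 (plus strand), Chd4 at chr6:125095731-125096030 (plus strand, the first of 2 windows), Trim28 at chr7:13023902-13024201 (plus strand), Crebbp at chr16:4213355-4213654 (minus strand) and Sirt1 at chr10:63338986-63339285 (minus strand).
Hexim1: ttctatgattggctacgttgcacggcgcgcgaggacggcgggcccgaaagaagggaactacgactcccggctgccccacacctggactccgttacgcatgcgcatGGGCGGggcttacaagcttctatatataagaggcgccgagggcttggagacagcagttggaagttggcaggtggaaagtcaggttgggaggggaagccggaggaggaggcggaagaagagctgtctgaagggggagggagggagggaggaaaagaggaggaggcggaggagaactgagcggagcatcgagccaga
Chd4: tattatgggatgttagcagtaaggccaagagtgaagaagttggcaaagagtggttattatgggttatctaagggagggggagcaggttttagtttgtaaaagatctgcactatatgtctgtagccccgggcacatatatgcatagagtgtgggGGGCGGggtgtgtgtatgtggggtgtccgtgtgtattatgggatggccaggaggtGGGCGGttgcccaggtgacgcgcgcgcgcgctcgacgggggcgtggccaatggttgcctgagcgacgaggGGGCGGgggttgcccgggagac
Trim28: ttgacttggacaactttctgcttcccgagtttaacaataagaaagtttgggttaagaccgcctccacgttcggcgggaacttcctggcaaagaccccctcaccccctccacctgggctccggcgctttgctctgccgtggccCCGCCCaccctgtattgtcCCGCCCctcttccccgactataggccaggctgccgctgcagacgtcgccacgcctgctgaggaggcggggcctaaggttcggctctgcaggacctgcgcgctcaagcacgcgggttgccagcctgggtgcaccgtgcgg
Crebbp: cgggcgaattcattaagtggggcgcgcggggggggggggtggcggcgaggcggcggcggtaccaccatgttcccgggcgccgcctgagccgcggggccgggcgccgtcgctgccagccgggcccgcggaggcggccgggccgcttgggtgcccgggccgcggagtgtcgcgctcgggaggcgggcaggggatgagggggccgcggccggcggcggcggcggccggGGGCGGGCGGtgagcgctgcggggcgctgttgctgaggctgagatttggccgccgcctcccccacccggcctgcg
Sirt1: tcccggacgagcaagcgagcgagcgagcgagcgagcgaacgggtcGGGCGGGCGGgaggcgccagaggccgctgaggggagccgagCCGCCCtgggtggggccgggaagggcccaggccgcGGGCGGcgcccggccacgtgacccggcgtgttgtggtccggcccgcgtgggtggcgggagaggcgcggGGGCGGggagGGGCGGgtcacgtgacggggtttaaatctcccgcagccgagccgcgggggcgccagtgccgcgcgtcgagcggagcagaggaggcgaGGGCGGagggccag
The 3 printed windows of genes that fell held 57.0% to 64.0% GC and 17 to 23 CpG dinucleotides, and the 2 windows of genes that rose 79.0% and 82.0% GC and 47 and 49 CpG dinucleotides. Matches to GGGCGG numbered 1 in the Hexim1 window, 3 in Chd4, 2 in Trim28, 2 in Crebbp and 7 in Sirt1. The second Chd4 window had 68.3% GC and 29 CpG dinucleotides. Among the called partners not printed, Top2b had 58.3% GC and 18 CpG dinucleotides and Pias1 66.3% and 28, so the windows of the genes that rose overlapped in composition with those of the genes that fell.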

How the data were processed

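Total RNA of the 6 samples was hybridised to Illumina bead arrays in a single colour, per the labels. The authors deposited normalized log2 values, 1 per probe and array, made with BeadStudio and lumi per the submitters' processing notes (versions unstated). How background, transform and normalization were handled is not stated, nor whether the scale is plain log2 or a variance-stabilizing transform. Another 24 value columns, in the remaining deposited tables, match no sample label and were not used, and no detection p-values were therefore applied. Gene symbols came from the platform's probe annotation, which gave 1 symbol for 32782 probes, several for 55 and none for 13782. The bound on background was the mode of each array (density bandwidth 0.05) plus 3 times the SD below the mode. The comparison of genotypes used limma 3.58.1 under R 4.3.3 (lmFit, eBayes, genotype only, two-sided, Benjamini-Hochberg over tested probes, threshold 0.05), tested on simulated data first. The number of arrays limits the precision. The genes, lists and tests were chosen with earlier results of these data known. Named genes are all the partners, Aire, and up to 3 called genes of each list with the largest change. Alternatives were other scalings, filters, variance models, batch and sex terms, probe summaries and leaving out each array. Figures were drawn with matplotlib 3.10.9.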

Additional observations from a re-analysis of the deposited data

How the results depend on the processing

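Over the alternatives, 909 of 986 values of partner probes kept their direction and side of the threshold or were uncalled in both, 69 lost a call, 8 gained one and no called value changed sign. Of the 46 tested partner probes only 4 were called lower and 7 higher, so most of these values had no call to lose. Among the 8 called partners, Hexim1 and Crebbp lost their calls only within beadchip 1. Of 22 alternatives each, Pias1 lost its call under 16, Top2b under 10, Prkdc under 7, Sirt1 under 5, Trim28 under 4 and Chd4 under 3. Cyclic loess lowered the median change of all tested probes by 0.10, from 0.10 to 0.00, and moved the share of lower among called probes from 46.1% to 63.8%. With it 6 partners fell (Parp1 and Ruvbl2 added) and 2 rose. It called 2341 probes higher, and of the pathway genes 12 higher. Housekeeping scaling gave 2 partners lower (Hexim1 and Chd4) and 2 higher (Crebbp and Sirt1), 2481 probes higher, and 12 pathway genes lower and 13 higher. It moved the median change of all tested probes up by 0.06, so rises whose calls ended with it had not shrunk. Pias1 and Top2b lost their calls with larger rises (0.35 and 0.39), and Trim28 and Prkdc with smaller falls (−0.40 and −0.38). Each beadchip has 1 array of one genotype, so these fits borrow the spread of the other arrays (2 residual degrees of freedom) and their lost calls do not show instability. Within beadchip 1 the fit called 0 partners lower and 0 higher (4 and 1 of 27 at an unadjusted p under 0.05), 1871 probes lower and 997 higher, and 4 pathway genes in each direction. Within beadchip 2 it called 1 partner lower, 1 higher, 1633 probes lower, 745 higher, and 3 pathway genes lower and 4 higher. With the date label as a covariate, which compares the knockout arrays with wild-type replicate 3 alone, 1 partner fell and 1 rose, 2242 probes were lower and 1653 higher, and 8 pathway genes were lower and 11 higher. Testing only probes above background on all arrays left 1885 called lower. At an adjusted p under 0.01, 1 partner rose, 2041 probes were higher, and 17 pathway genes were lower and 10 higher. With the dimmest tested probe of each gene 2 partners fell. Leaving out each array in turn gave 3 to 6 partners lower and 1 to 4 higher, 2759 to 3464 probes lower and 2457 to 4111 higher, and 17 to 28 pathway genes lower and 13 to 33 higher. The lowest counts of higher calls came without knockout replicate 2. With the replicate block 4 partners fell and 3 rose, 3447 probes were lower and 3968 higher, and 24 and 25 pathway genes were lower and higher. The numbers did not pair the samples: deviations from the group means correlated at 0.20, −0.06 and −0.02 for the equal-numbered arrays, and 1 of 3 wild-type arrays correlated best with its own number. Median centring and leaving out the filter moved no count past 1.5 times. The sources of these changes were not tested. Changes of dim probes are limited by background remaining in the values.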
